A study of Mus musculus with 10 samples.

Results

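Calbindins and S100 proteins are small cytosolic calcium-binding proteins built from EF-hands, the helix-loop-helix motif that holds a calcium ion. This account follows 10 of their genes in mouse pancreatic islets: Calb1, Calb2, S100a1, S100a4, S100a6, S100a8, S100a9, S100a10, S100a11 and S100a13. They were taken from the 19938 genes with a probe set annotated to that gene alone, each represented by its brightest probe set. The list was chosen by the Calb1 values themselves, since Calb1 was among the largest negative differences between NZO and C3H islets. The Calb1 difference is therefore a description here and carries no test, and the other members are in the list as relatives of Calb1.

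Calbindins act mainly as buffers that soak up calcium entering the cell, and calbindin-D28k, the product of Calb1, has been described as such a buffer in the beta cells of rodent islets. S100 proteins are mostly dimers that change shape when calcium binds and then dock onto partner proteins, among them annexins, cytoskeletal proteins and, outside the cell, receptors of inflammation. In islets, calcium entry through voltage-gated channels triggers hormone release, so that buffers and sensors sit between the signal and secretion.

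The islets came from 5 NZO arrays and 5 C3H arrays. NZO/Hl is an obese, diabetes-prone inbred strain, and C3HeB/FeJ (labelled C3H) is the other inbred strain. All mice were males of 6 weeks that had eaten a high-fat diet (45 kcal% fat) from weaning at 21 days onward, and the labels name no transgene or deletion in either strain. Islets of both strains were kept overnight in medium with 10 mM glucose before RNA extraction, so the values describe rested, cultured islets. Most array titles carry a pair of animal numbers, but that of NZO replicate 4 carries 1 number and that of NZO replicate 5 a range. The labels do not say how animals were pooled, and the p-values reflect only how these samples scatter, which may be technical in part.

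Values are log2 expression values made by the authors with RMA, 1 per probe set and array, where 1 unit is a 2-fold step. Array medians lay between 6.93 and 6.99 in NZO and between 6.93 and 7.05 in C3H. Islet hormone genes were bright in both strains, with Ins2 at 12.45 in NZO and 12.33 in C3H and Gcg at 13.21 in NZO and 13.25 in C3H. Sst (13.12 in NZO and 13.87 in C3H, log2 difference -0.75, limma adjusted p = 0.000379) and Ppy (13.37 in NZO and 13.78 in C3H, -0.41, limma adjusted p = 0.00465) were also bright and were lower in NZO, with no overlap between strains. Exocrine transcripts differed too: of 19 measured acinar cell genes, 17 were higher in NZO and 0 lower, and their mean was 9.80 to 11.5 on NZO arrays and 8.34 to 9.17 on C3H arrays. Over all genes 5.47% were higher and 4.61% lower at a limma adjusted p below 0.05. NZO replicates 4 and 5 had the highest acinar means (11.5 and 11.4). C3H replicate 4 stood apart in another way, as the lower quartile of its genes was at 6.45, against 6.17 to 6.29 on the NZO arrays and 6.17 to 6.26 on the other C3H arrays. Results on some members are therefore also given without these arrays.

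The S100a members all lie on mouse chromosome 3, most of them in a dense run, with S100a11 and S100a10 apart from it. The start regions of S100a1 and S100a11 are shown because these members were called higher, and that of S100a13 because it overlaps the start of S100a1. Promoter windows of 300 bases, 250 before to 50 after the gene start, come from RefSeq (build GRCm38.p6), which gave one for 7 of the 10 members. S100a1 and S100a13 start head to head: the annotated genes overlap by 98 bases, and their promoter windows share 204 bases. S100a1 (minus strand) occupies chr3:90514281-90514580 and S100a13 (plus strand) chr3:90514185-90514484, and the capitals in these mark the shared stretch, read on opposite strands. The S100a11 window (plus strand) is chr3:93520246-93520545, and its capitals mark the GC boxes (GGGCGG) and AP-1 sites (TGANTCA).
S100a1: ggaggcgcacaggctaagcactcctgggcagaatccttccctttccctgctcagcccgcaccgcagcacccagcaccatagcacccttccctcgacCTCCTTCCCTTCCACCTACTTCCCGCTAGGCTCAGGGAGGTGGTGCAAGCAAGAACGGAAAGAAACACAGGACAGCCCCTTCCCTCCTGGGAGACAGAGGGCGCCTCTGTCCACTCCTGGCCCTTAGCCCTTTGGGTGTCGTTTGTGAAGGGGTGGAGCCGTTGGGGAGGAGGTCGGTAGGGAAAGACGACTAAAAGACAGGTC
S100a13: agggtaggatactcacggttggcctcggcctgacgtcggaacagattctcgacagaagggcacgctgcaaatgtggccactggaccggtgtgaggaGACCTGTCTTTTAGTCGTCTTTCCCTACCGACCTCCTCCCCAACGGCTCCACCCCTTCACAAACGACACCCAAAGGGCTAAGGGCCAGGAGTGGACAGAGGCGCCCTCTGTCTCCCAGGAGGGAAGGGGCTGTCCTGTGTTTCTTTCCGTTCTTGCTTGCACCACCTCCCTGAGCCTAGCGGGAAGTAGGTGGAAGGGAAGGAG
S100a11: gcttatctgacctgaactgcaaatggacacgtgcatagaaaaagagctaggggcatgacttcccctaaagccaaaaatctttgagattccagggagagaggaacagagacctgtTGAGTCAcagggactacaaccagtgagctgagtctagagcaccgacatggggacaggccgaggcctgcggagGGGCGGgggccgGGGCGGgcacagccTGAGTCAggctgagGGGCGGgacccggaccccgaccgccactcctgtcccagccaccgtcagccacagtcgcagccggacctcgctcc

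The S100a11 window held 3 GC boxes, which begin at positions -64, -52 and -24 from the start, and 2 AP-1 sites, which begin at -136 and -38. In a search of both strands, a GC box was present in 35.7% of 32851 promoter windows of the same length, and an AP-1 site in 7.81%. No GC box, TATA box (TATAAA), AP-1 site or CCAAT box (CCAAT) was found in the S100a1 or S100a13 window. TATA boxes occurred in 13.6% of all windows and CCAAT boxes in 37.4%. Among the other members, the windows of S100a4, S100a8 and S100a9 each held a TATA box, beginning at -31 in S100a4, at -30 in S100a8 and at 1 in S100a9. The S100a11 and S100a1 windows were 61.7% and 61.0% G or C, and the median of all windows was 52.7%. These matches describe the letters and say nothing of factor binding.

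Calb1 encodes calbindin-D28k and lies on chromosome 4 (GRCm38.p6, chr4:15881264-15906709). Its log2 values in NZO islets were 7.18, 7.60, 7.45, 7.35 and 6.88 on replicates 1 to 5, and in C3H islets 9.26, 9.02, 9.63, 8.28 and 9.06. The highest NZO array stood 0.67 units below the lowest C3H array, so the strains did not overlap. The means were 7.29 ± 0.28 in NZO and 9.05 ± 0.50 in C3H (SD, n = 5 each), a log2 difference of -1.76 (SE 0.20), or 3.38-fold lower in NZO. In islets as bulk tissue, fewer cells that make a transcript and less transcript per cell cannot be told apart. Calb1 was read by 1 probe set, and without probe sequences it could not be checked whether its probes match both strains equally. The same limit holds for the other genes named here. Calb1 ranked as the 11th most negative difference of 19938 genes. Just beyond it stood 4933431E20Rik (-1.76) and Tac1 (-2.03), and just short of it Rnf7 (-1.73) and Slc6a17 (-1.71).

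**Figure D1:**
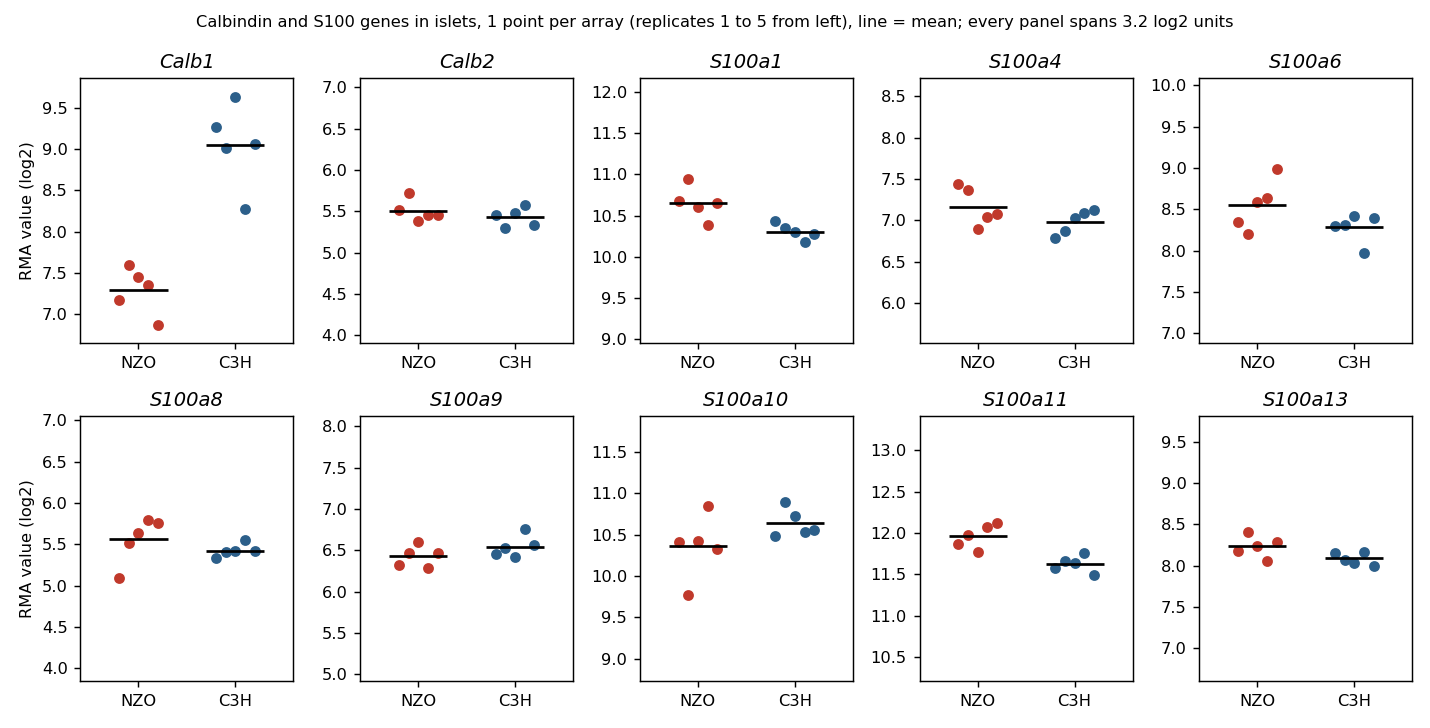
Each panel shows 1 gene, with RMA values (log2) on the vertical axis, NZO arrays left and C3H arrays right, 1 point per array and a line at the mean, and every panel spans the same number of log2 units. Calb1 separates the strains by the widest margin, with NZO arrays at 6.88 to 7.60 and C3H arrays at 8.28 to 9.63, and S100a11 is the other gene without overlap.

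The spread of Calb1 was unequal. C3H replicate 4, at 8.28, was the lowest of its strain by 0.74 units, and the other 4 C3H arrays lay between 9.02 and 9.63. Without that array the log2 difference was -1.95 (SE 0.15), and without C3H replicate 3, the highest array, it was -1.61 (SE 0.19). With NZO replicates 4 and 5 both left out it was -1.64 (SE 0.22), and with the acinar mean as a covariate beside strain -1.65 (SE 0.40). In each of the 18 alternative settings the value moved by less than the spread between replicates. Brightness filters and trended, robust moderation leave an estimate as it is. The mean of all probe sets does so for Calb1, which has 1 probe set. Leaving 1 of 5 arrays out can move a mean only by a part of that spread. This stability is therefore a description and no support for the difference.

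Genes were then ranked by how closely their profile over the 10 arrays, after subtraction of each gene's own mean, followed that of Calb1. The measure was the root mean square distance in log2 units, over 14953 genes brighter than the lowest quartile. The nearest were Ntm (distance 0.25), an adhesion molecule of neurons, Ndst4 (0.25), an enzyme that sulfates heparan chains, 4933431E20Rik (0.31), Galnt13 (0.32), an enzyme that starts O-linked sugar chains, and Aass (0.32), an enzyme of lysine breakdown. Their log2 differences lay between -1.76 for 4933431E20Rik and -1.48 for Galnt13. In all 5, as in Calb1, C3H replicate 4 was the lowest C3H array. The measure favours genes with a similar strain difference, and it is a description only.

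**Figure D2:**
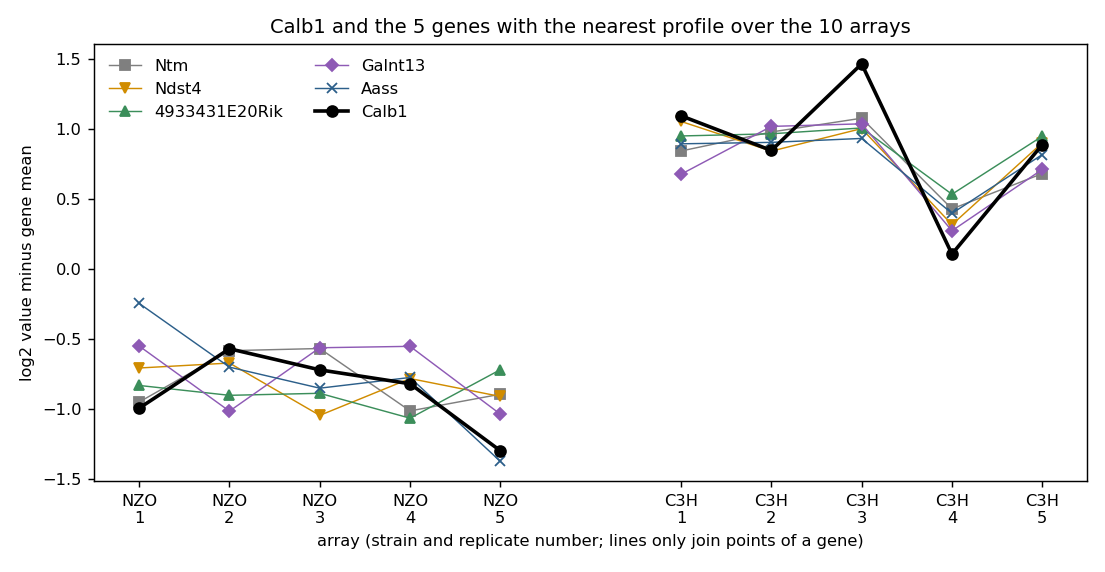
The vertical axis gives the log2 value minus the gene's mean over 10 arrays, and the horizontal axis the arrays, NZO replicates 1 to 5 and then C3H replicates 1 to 5; the black line is Calb1 and the other lines are the 5 nearest genes. All 6 genes are low in NZO and high in C3H, and all have their lowest C3H value on replicate 4.

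The genes beside Calb1 did not share its difference as a block. Toward lower coordinates the nearest measured genes were Tmem64 (log2 difference 0.01), Necab1 (-0.59) and Pip4p2 (-0.12), and toward higher coordinates Decr1 (0.10), Nbn (-0.02) and Osgin2 (-0.19). Of these 6, only Necab1 passed the test (limma adjusted p = 0.00201, SE 0.11). Necab1 encodes another EF-hand protein of neurons and starts at -929 kb from the start of Calb1. Its log2 values were 6.25, 6.21, 6.43, 6.38 and 6.09 in NZO and 6.82, 7.21, 6.93, 6.69 and 6.69 in C3H. The strains did not overlap, but the NZO level lay near the lower quartile of all genes, where RMA compresses differences.

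Calb2 encodes calretinin, a related calcium buffer known from neurons and mesothelial cells. Its log2 values were 5.38 to 5.72 in NZO and 5.30 to 5.58 in C3H, below the lower quartile of genes on every array, so it was not shown to be above background. The strains overlapped, and the log2 difference was 0.08 (95% interval -0.10 to 0.26, limma adjusted p = 0.691). Of 7 mesothelial marker genes 1, Msln, was higher in NZO (1.12), and 0 were lower, beside 10.1% of all genes called. The 6 measured genes nearest to Calb2 on chromosome 8, Tat, Chst4, Zfp612, Cmtr2, Hydin and Vac14, differed by -0.29 to -0.02, and none passed in limma (at unadjusted p, also 0 of 6 below 0.05).

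Among the 9 members other than Calb1, 2 were higher in NZO, S100a1 and S100a11, 0 were lower, and 7 did not pass at a limma adjusted p of 0.05. Over all genes tested, 10.1% were called, 5.47% higher and 4.61% lower. The same 2 members were the only ones with an unadjusted p below 0.05. The median log2 difference of the 9 was 0.15, where that of all genes was -0.02, and 7 of the 9 differences were positive. The list was drawn from the same contrast, so these counts are a description of the family and not evidence about it.

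S100a11 encodes a widely expressed S100 dimer that binds annexin A1. Its log2 values were 11.87, 11.97, 11.77, 12.06 and 12.12 in NZO and 11.57, 11.65, 11.63, 11.75 and 11.49 in C3H. Every NZO array stood above every C3H array, by a margin of 0.02 at the closest pair; over all genes 9.14% had strains that did not overlap, 4.96% with NZO higher and 4.18% with NZO lower. The log2 difference was 0.34 (SE 0.08, 95% interval 0.16 to 0.52, limma adjusted p = 0.0185), or 1.26-fold. A second probe set with the same gene accessions gave 0.36 (SE 0.08), but as both may detect the same or near-identical sequence they are not independent. The values printed here are those of the brighter probe set. Without probe positions it could not be checked whether either measures a copy of the gene elsewhere. The call was lost without NZO replicate 4, NZO replicate 5, C3H replicate 1 or C3H replicate 5, one at a time (limma adjusted p = 0.0543 to 0.0597). With NZO replicates 4 and 5 both left out the log2 difference was 0.25 (limma adjusted p = 0.191), and with the acinar mean as a covariate 0.14 (limma adjusted p = 0.999).

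S100a1 encodes the S100 protein best known from heart muscle, where it tunes the release and re-uptake of calcium by the sarcoplasmic reticulum. On the log2 scale S100a1 was at 10.67, 10.94, 10.60, 10.39 and 10.65 in NZO and 10.44, 10.35, 10.30, 10.17 and 10.28 in C3H. NZO replicate 4 overlapped with C3H replicate 1, and the other 4 NZO arrays were above all C3H arrays. The log2 difference was 0.34 (SE 0.10, 95% interval 0.14 to 0.55, limma adjusted p = 0.0350), or 1.27-fold. The call was lost without NZO replicate 1, 2, 3 or 5 or C3H replicate 2, 3, 4 or 5, one at a time (limma adjusted p = 0.0520 to 0.0805). With NZO replicates 4 and 5 both left out S100a1 was 0.43 higher and passed (limma adjusted p = 0.0252), and with the acinar covariate it was 0.60 higher without passing (limma adjusted p = 0.219). In NZO, S100a1 was highest on replicate 2 and lowest on replicate 4, as was the mean of 12 beta cell genes (11.71 on replicate 2 and 10.97 on replicate 4), and the part of this in the result was not tested.

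S100a13, which in other cells assists the export of proteins that lack a signal peptide, shares the start region printed above with S100a1. S100a13 was at 8.18, 8.41, 8.24, 8.06 and 8.29 in NZO and 8.16, 8.07, 8.04, 8.17 and 8.00 in C3H. In NZO its highest and lowest arrays, replicates 2 and 4, were those of S100a1. In C3H, replicate 4 was the highest array of S100a13 and the lowest of S100a1. The strains overlapped, and the log2 difference was 0.15 (95% interval -0.02 to 0.32, limma adjusted p = 0.309), and 0.26 with the acinar covariate (limma adjusted p = 0.952).

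S100a10 and S100a6 are partners of annexins. S100a10, also called p11, forms a complex with annexin A2 that carries channels and receptors to the plasma membrane. On the log2 scale S100a10 was at 10.41, 9.77, 10.43, 10.85 and 10.33 in NZO and 10.49, 10.89, 10.72, 10.53 and 10.55 in C3H. NZO replicate 2 was the lowest and NZO replicate 4 close to the highest of all 10 arrays, so that the strains overlapped. The log2 difference was -0.28 (95% interval -0.61 to 0.05, limma adjusted p = 0.332). It was -0.13 without NZO replicate 2, -0.43 without NZO replicates 4 and 5, and -0.76 with the acinar covariate (limma adjusted p = 0.396). Anxa2, the gene of its partner, had log2 values of 9.15, 8.90, 9.48, 9.99 and 10.28 in NZO and 8.75, 8.94, 8.88, 8.62 and 9.03 in C3H. It was called higher (0.72, SE 0.21, limma adjusted p = 0.0429), and in NZO both genes had their lowest value on replicate 2. The Anxa2 call was lost without NZO replicate 3, 4 or 5 or any single C3H replicate (limma adjusted p = 0.0581 to 0.108). It was also lost without NZO replicates 4 and 5 together (0.33, limma adjusted p = 0.227), and the acinar covariate turned the sign (-0.33, limma adjusted p = 0.999). Anxa2 also followed the macrophage markers in NZO, whose mean over 13 genes was 8.00, 7.74, 8.27, 8.89 and 9.03 on replicates 1 to 5, against 7.65 to 7.83 in C3H. Of those 13 genes 6 were higher in NZO and 0 lower, beside 10.1% of all genes called, and none was dim in both strains. The match was not particular to macrophages. The mean of 12 stellate cell and fibroblast markers had the same order over the NZO arrays, from 8.32 on replicate 2 to 9.54 on replicate 5. That of 6 measured duct cell genes, of which 3 were higher and 0 lower, ran from 8.195 on replicate 2 to 9.27 on replicate 4. The part of these lists in the result was not tested.

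S100a6, or calcyclin, binds annexin A11 and the ubiquitin ligase adaptor Cacybp. Its log2 values were 8.35, 8.20, 8.59, 8.64 and 8.99 in NZO and 8.30, 8.31, 8.42, 7.97 and 8.39 in C3H. The highest was NZO replicate 5 and the lowest C3H replicate 4, with overlap between. The log2 difference was 0.27 (95% interval -0.01 to 0.56, limma adjusted p = 0.257), and the low C3H replicate 4 adds to it. With single arrays left out it lay between 0.16 (without NZO replicate 5) and 0.36 (without NZO replicate 2). It was 0.10 without NZO replicates 4 and 5, and -0.26 with the acinar mean as a covariate. Among NZO arrays, replicate 5 also had the highest macrophage mean and replicate 2, the lowest NZO array of S100a6, the lowest. The same held for the stellate cell and fibroblast mean (9.54 on replicate 5 and 8.32 on replicate 2). The part of these cell types in the result was not tested.

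**Figure D3:**
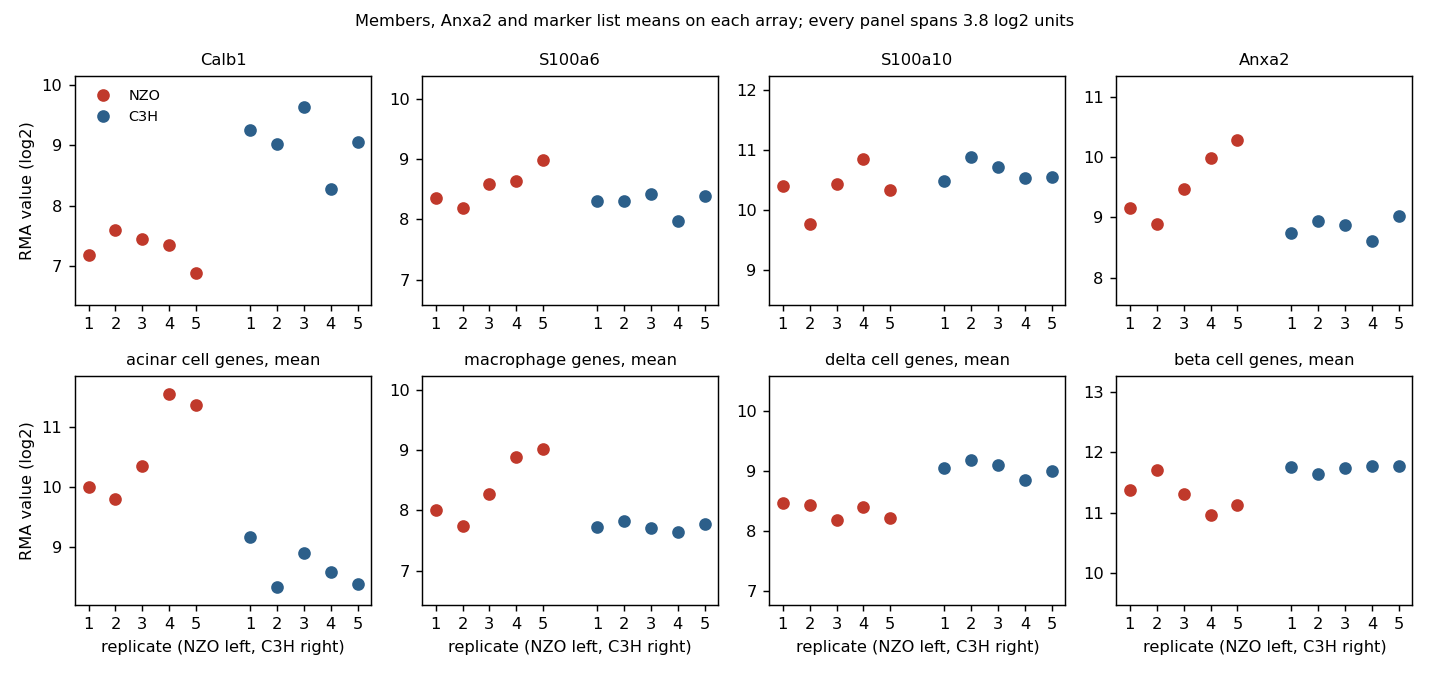
Each panel gives log2 RMA values by array, NZO replicates 1 to 5 left and C3H replicates 1 to 5 right, for 3 members, the S100a10 partner Anxa2 and the means of 4 marker lists, and every panel spans the same number of log2 units. Acinar and macrophage means and Anxa2 are highest on NZO replicates 4 and 5, whereas Calb1 is low on all 5 NZO arrays.

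S100a4, known as a marker of fibroblasts and of motile cells, binds non-muscle myosin. S100a4 was at 7.45, 7.37, 6.89, 7.04 and 7.08 in NZO and 6.79, 6.88, 7.03, 7.09 and 7.12 in C3H. NZO replicates 1 and 2 were above all C3H arrays and the other 3 among them. The log2 difference was 0.18 (95% interval -0.05 to 0.42, limma adjusted p = 0.391). It was 0.11 without NZO replicate 1 and 0.53 with the acinar covariate (limma adjusted p = 0.447). Of 12 stellate cell and fibroblast markers 2 were higher in NZO and 0 lower, beside 10.1% of all genes called. The mean of these markers was highest on NZO replicates 4 and 5 (9.52 and 9.54), not on the arrays where S100a4 was highest.

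S100a8 and S100a9 form calprotectin, the abundant calcium- and zinc-binding complex of neutrophils and an alarm signal of inflammation. The log2 values of S100a8 were 5.10, 5.51, 5.63, 5.80 and 5.76 in NZO and 5.33, 5.40, 5.41, 5.56 and 5.42 in C3H. All lay below the lower quartile of genes on their array, so S100a8 was not shown to be above background. S100a9 was at 6.32, 6.47, 6.60, 6.28 and 6.47 in NZO and 6.45, 6.53, 6.42, 6.76 and 6.56 in C3H, close to that quartile. The log2 differences were 0.13 for S100a8 (95% interval -0.11 to 0.38, limma adjusted p = 0.596) and -0.12 for S100a9 (95% interval -0.30 to 0.07, limma adjusted p = 0.526). For S100a8 the difference was 0.25 without NZO replicate 1, -0.01 without NZO replicates 4 and 5 and -0.26 with the acinar covariate. For S100a9 it was -0.06 without C3H replicate 4 and 0.02 with the covariate. Of 13 neutrophil markers 7 were dim in the same sense, among them Ly6g, Cxcr2 and Retnlg. One of the 13, the decoy receptor gene Il1r2, was higher in NZO (0.59) and 0 were lower, beside 10.1% of all genes called. The list mean was 5.81 to 5.97 in NZO and 5.73 to 6.07 in C3H. C3H replicate 4 was the highest C3H array for S100a8, S100a9 and Calb2 and for the neutrophil mean, as it was for the lower quartile of all its genes.

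**Figure D4:**
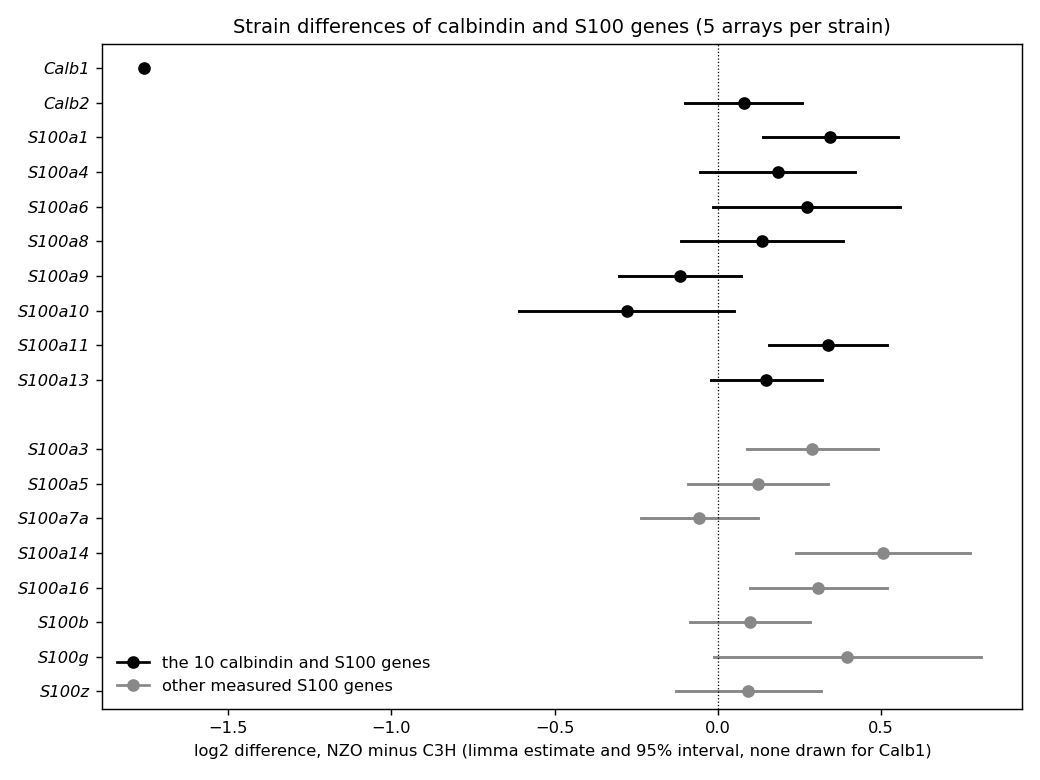
The horizontal axis is the log2 difference, NZO minus C3H, with points for limma estimates and bars for 95% intervals over 5 arrays per strain. Black marks the 10 genes described here and grey 8 other measured S100 genes, without S100a2. Apart from Calb1 at -1.76, drawn without an interval, all differences lie between -0.28 and 0.51.

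The list of other S100 genes held 8 measured genes with differences of similar size, 1 higher, 0 lower and a median of 0.21. Over all genes 10.1% were called. Of the 8, 3 had an unadjusted limma p below 0.05. S100a2 (-0.12, limma adjusted p = 0.594) was also measured but is in neither this list nor its median. S100a14, an epithelial S100 gene, had log2 values of 6.18, 6.42, 6.66, 6.39 and 6.84 in NZO and 5.84, 5.81, 5.96, 6.31 and 6.04 in C3H. Only NZO replicate 1 and C3H replicate 4 overlapped. The log2 difference was 0.51 (SE 0.12, limma adjusted p = 0.0176), but the gene was dim, so no fold is given. The call was lost without NZO replicate 3 or C3H replicate 1 (limma adjusted p = 0.0511 to 0.0544) and without NZO replicates 4 and 5 together (0.43, limma adjusted p = 0.0927), and with the acinar covariate (0.30, limma adjusted p = 0.999). S100a16 (0.31, limma adjusted p = 0.0647), whose strains did not overlap, and the dim S100a3 (0.29, limma adjusted p = 0.0681) came close to the threshold. S100g, the gene of calbindin-D9k that responds to vitamin D in the gut, was at 7.50, 6.96, 7.41, 8.29 and 7.94 in NZO and at 7.06 to 7.45 in C3H (log2 difference 0.40, limma adjusted p = 0.246). Its high NZO arrays were replicates 4 and 5. S100b (0.10), S100a5 (0.12), S100z (0.09) and S100a7a (-0.06) did not pass either, and S100b and S100z were dim, which limits what they can show.

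By position, the 12 measured genes from S100a1 to S100a9 on chromosome 3 span 182 kb between their starts. Of these, 9 had positive differences and 2 were called, S100a1 and S100a14, beside 10.1% of all genes. Both calls were lost with some single arrays left out. S100a7a (-0.06), S100a8 (0.13), S100a9 (-0.12) and S100a2 (-0.12) were nearer to 0. However, S100a14 and S100a8 were dim, and S100a9 and S100a2 were close to the lower quartile, so no pattern by position is drawn. S100a11 and S100a10 lie apart from the others, with starts 34.6 kb from each other, and had differences of opposite sign (0.34 and -0.28), of which that of S100a11 passed.

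The variability of the members was compared without reference to the strain difference. The SD over 5 arrays was larger in NZO for 8 of 10 members, with a mean of 0.22 in NZO and 0.16 in C3H. Over all genes the SD was larger in NZO in 44.6%, with medians of 0.133 in NZO and 0.147 in C3H. These medians cannot be set against the means of the members, and the C3H mean includes the large SD of Calb1. Calb1 (0.28 in NZO, 0.50 in C3H) and S100a9 (0.128 in NZO, 0.133 in C3H) were the 2 members with the larger SD in C3H. These shares were not tested.

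Calcium in the cell is also read by other EF-hand proteins, and several of these differed more than any S100 gene. Of 44 measured EF-hand buffers and sensors, 7 were higher and 7 lower in NZO, with a median of -0.01. Over all genes 5.47% were called higher and 4.61% lower. Kcnip3, which encodes calsenilin or DREAM, a neuronal calcium sensor that binds potassium channels and DNA, had log2 values of 9.73, 9.78, 9.38, 9.35 and 9.24 in NZO and 7.10, 7.24, 6.88, 7.18 and 6.83 in C3H. The strains were far apart, and the log2 difference was 2.45 (SE 0.12, limma adjusted p = 1.63e-08), or 5.47-fold. With the acinar covariate it was 2.90, and without NZO replicates 4 and 5 it was 2.58.

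The 3 genes named reticulocalbin, Rcn1, Rcn2 and Rcn3, which encode calcium-binding proteins of the endoplasmic reticulum, were all lower. Rcn1 was at 8.83, 8.55, 8.86, 9.24 and 9.12 in NZO and 9.82, 9.97, 9.81, 9.59 and 9.84 in C3H, a log2 difference of -0.89 (SE 0.12, limma adjusted p = 0.000223). Rcn3 was at 8.17, 8.25, 8.25, 8.62 and 8.63 in NZO and 9.43, 9.27, 9.46, 8.85 and 9.14 in C3H, a log2 difference of -0.85 (SE 0.13, limma adjusted p = 0.000596). Rcn2 differed by -0.45 (limma adjusted p = 0.00586), and the strains overlapped in none of these genes. Rcn1 (-1.38) and Rcn3 (-1.40) also passed with the acinar covariate, and Rcn2 (-0.32) did not. Their relatives in the list, Calu (0.23, limma adjusted p = 0.438) and Sdf4 (-0.0083, limma adjusted p = 0.980), did not pass without a covariate, so the wider family was not lower as a whole.

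The other 4 EF-hand genes called lower were Cabp7, Necab1, Necab2 and Vsnl1. Cabp7, a calmodulin-like protein of the Golgi, was at 8.21, 8.52, 7.92, 7.42 and 7.40 in NZO and 9.18, 8.84, 9.12, 8.76 and 8.90 in C3H (log2 difference -1.07, SE 0.19, limma adjusted p = 0.00173). Its lowest arrays were NZO replicates 4 and 5, and with the acinar covariate its difference was -0.24 and did not pass. Necab2 (-0.81), Vsnl1 (-0.72), the gene of visinin-like protein, and Necab1 (-0.59) were lower as well. With the acinar covariate these stood at -0.14, -0.40 and -0.55 and did not pass, and without NZO replicates 4 and 5 Necab2 (-0.56, limma adjusted p = 0.0771) lost its call. Of 10 measured Schwann cell and neuron markers 3 were lower in NZO, Nefm (-2.19), Ngfr (-0.57) and Nefl (-0.32), and 1, Uchl1, was higher (0.40), beside 10.1% of all genes called. The mean of these 10 markers was 7.38 to 7.52 in NZO and 7.66 to 7.86 in C3H, and their part in the result was not tested.

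Higher in NZO besides Kcnip3 were Efhd2 (0.61), Kcnip1 (0.55), Calml4 (0.53), Cib1 (0.30), the calmodulin gene Calm3 (0.29) and Hpcal1 (0.27). The calls of Kcnip1 (6 of 10 single arrays left out, all but NZO replicates 4 and 5 and C3H replicates 1 and 5, limma adjusted p up to 0.0750), Hpcal1 (7 of 10, all but C3H replicates 1, 4 and 5, up to 0.113) and Cib1 (9 of 10, all but C3H replicate 3, up to 0.127) were lost. With the acinar covariate none of these 6 genes passed, at 0.13 for Efhd2, 1.11 for Kcnip1, 0.71 for Calml4, 0.26 for Cib1, 0.44 for Calm3 and 0.22 for Hpcal1 (limma adjusted p = 0.0583 for Kcnip1 and above that for the others). Without NZO replicates 4 and 5, Cib1 (limma adjusted p = 0.158) and Hpcal1 (limma adjusted p = 0.205) did not pass. Secretagogin (Scgn), a calcium sensor abundant in endocrine cells, did not pass (-0.35, limma adjusted p = 0.127), nor did parvalbumin (Pvalb, -0.01).

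**Figure D5:**
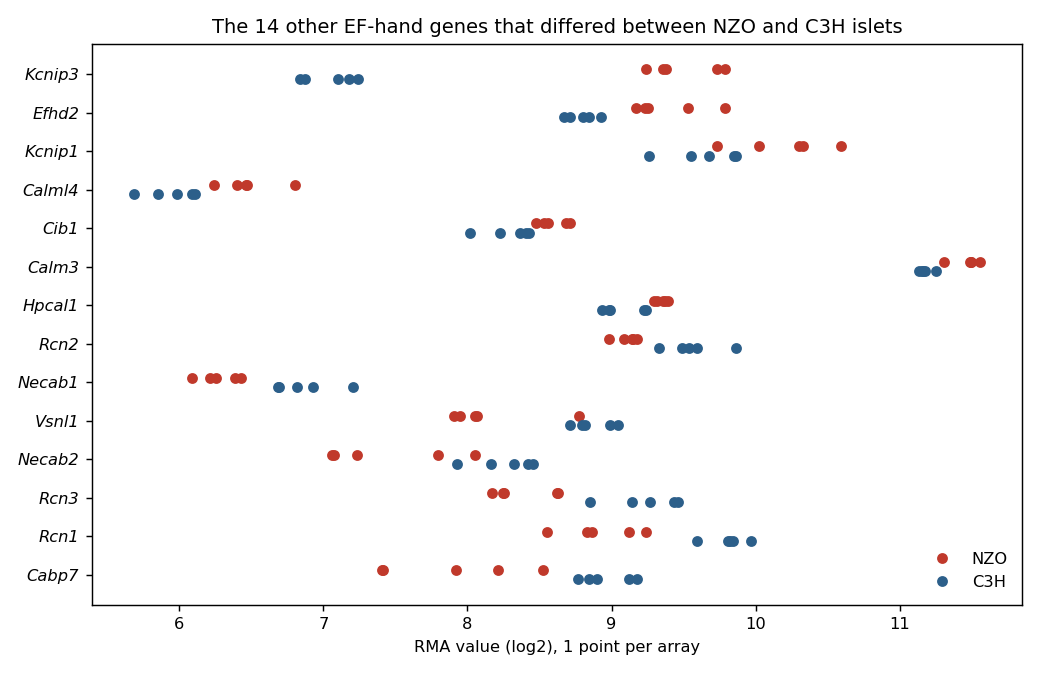
The horizontal axis gives log2 RMA values, 1 point per array, for the 14 called EF-hand genes outside the 10 members, with NZO above C3H in each row and rows ordered from the most positive to the most negative difference. Kcnip3 has NZO arrays at 9.24 to 9.78 and C3H arrays at 6.83 to 7.24, and at the bottom Cabp7 has NZO arrays at 7.40 to 8.52 and C3H arrays at 8.76 to 9.18.

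Of 15 binding partners and receptors of S100 proteins, 2 were higher and 2 lower in NZO, beside 10.1% of all genes called, with a median of 0.08. Cd36, a fatty acid transporter that also binds S100a8 and S100a9, was at 7.66 to 9.70 in NZO and 6.42 to 7.20 in C3H, so the strains did not overlap. The difference was 1.78 (SE 0.31, limma adjusted p = 0.00165), and 0.19 with the acinar covariate, where it did not pass. Anxa6 (-0.34, limma adjusted p = 0.0364) and Syt1 (-0.61, limma adjusted p = 0.0102) were lower. With the acinar covariate Syt1 was at -0.38 and did not pass, and Anxa6 was at -0.74 and passed (limma adjusted p = 0.0370). The Anxa6 call was lost without NZO replicate 1, 2, 3 or 4 or C3H replicate 1, 3 or 5 (limma adjusted p = 0.0622 to 0.103). The partner of S100a11, Anxa1 (0.74, limma adjusted p = 0.154), the partner of S100a6, Anxa11 (0.11, limma adjusted p = 0.420), the receptor gene Ager (-0.01) and Tlr4 (0.52, limma adjusted p = 0.0627) did not pass.

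Of 23 measured calcium pumps, exchangers and stores 2 were called, beside 10.1% of all genes. Itpr2, an inositol trisphosphate receptor of the endoplasmic reticulum, was higher (0.41, SE 0.09, limma adjusted p = 0.00676), as was Slc8b1, the mitochondrial sodium/calcium exchanger (0.31, SE 0.08, limma adjusted p = 0.0187). None was lower, with 5 of the 23 at an unadjusted p below 0.05, and the median was -0.05. The Slc8b1 call was lost without NZO replicate 4, NZO replicate 5 or C3H replicate 5 (limma adjusted p = 0.0516 to 0.0544), and both calls were lost without NZO replicates 4 and 5 together (Itpr2 0.32, limma adjusted p = 0.0714; Slc8b1 0.23, limma adjusted p = 0.179). Neither passed with the acinar covariate (Itpr2 0.14, Slc8b1 0.088).

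The profiles nearest to S100a1 were those of the nucleoside transporter gene Slc29a1 (distance 0.067), the pseudouridine synthase gene Trub2 (0.077) and Abhd16a (0.084), with differences of 0.40, 0.28 and 0.28. Those nearest to S100a11 were Gstt3 (0.065), a glutathione transferase gene, Sertad4 (0.067) and Dab1 (0.080), with differences of 0.32, 0.32 and 0.29. Trub2 lost its call without any single array except NZO replicate 4 (limma adjusted p up to 0.102), and Gstt3 without NZO replicate 2, 4 or 5 or C3H replicate 1, 2, 3 or 5 (limma adjusted p up to 0.125). With the acinar covariate Slc29a1, Trub2, Gstt3 and Sertad4 did not pass, and without NZO replicates 4 and 5 only Slc29a1 of these 4 did (limma adjusted p = 0.0102).

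Markers of endocrine cells were set beside the Calb1 result. Over all genes 5.47% were called higher and 4.61% lower in NZO. Of 6 delta cell genes 5 were lower in NZO and 0 higher, with means of 8.18 to 8.47 in NZO and 8.86 to 9.18 in C3H. Of 12 beta cell genes 4 were lower and 0 higher, with means of 10.97 to 11.71 in NZO and 11.65 to 11.78 in C3H. Of 5 measured alpha cell genes 2 were lower and 0 higher, with means of 9.90 to 10.09 in NZO and 10.24 to 10.27 in C3H. Of 3 PP cell genes 1, Ppy, was lower and 0 higher, with means of 10.76 to 11.19 in NZO and 11.26 to 11.31 in C3H. Within NZO, Calb1 and the beta cell mean were both highest on replicate 2, whereas Calb1 was lowest on replicate 5 and the beta cell mean on replicate 4. In C3H, replicate 4 had the lowest Calb1 value and the lowest delta cell mean (8.86). Of the delta cell genes, Ptprz1 (6.63) and Hhex (7.48) had their lowest C3H value on that array. Sst (13.87), Rbp4 (11.055), Spock3 (6.40) and Ghsr (7.69) did not. The part of these cell types in the Calb1 difference was not tested.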

How the data were processed

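Per the labels' protocols, 150 ng of islet RNA with an integrity number above 8 went onto 1 Affymetrix whole-transcript array per sample. Per the submitters' processing notes, the deposited log2 values come from RMA, run by the authors in Expression Console. This method corrects background, makes array distributions alike and combines probes, so dim and very bright probe sets are compressed and no detection call is given. For the software version and the genome build, nothing is stated in the sources used here.

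Of 35556 probe sets, 21789 carried exactly 1 gene symbol, 1621 several and 12146 none here, and 21698 matched the GRCm38.p6 gene table by Entrez ID, with no symbol changed. The brightest probe set was kept for the 999 genes with several, which left 19938 genes and no brightness filter. "Dim" means a mean below the 25th percentile of genes.

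Each difference (NZO minus C3H) was estimated with limma 3.58.1 in R 4.3.3 (lmFit, then eBayes) on all genes, with two-sided p-values adjusted by Benjamini-Hochberg across the 19938 genes and a threshold of 0.05. The procedure was tested on simulated data. Replicate numbers follow deposition order, and the labels give no batch. The number of arrays limits the precision. The members and all lists were chosen with earlier results of these data known. Genes named are all members, all other measured S100 genes, the up to 4 called genes with the smallest p of each related list, nearest profiles and nearest chromosomal neighbours. The other called EF-hand genes, the members of marker lists, and the uncalled Scgn, Pvalb, Calu, Sdf4, Anxa1, Anxa11, Ager and Tlr4 were added after their values were seen. Alternatives were brightness filters, the mean of all probe sets of a gene, array medians subtracted, trended and robust moderation, array weights, the mean of the acinar list as a covariate, and arrays left out.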

Additional observations from a re-analysis of the deposited data

Results flagged for a closer look

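Each strain's 5 arrays were checked for a single array far from the others, taken as a gap to its neighbour above 0.71 of the range of the group. Of 104 groups (52 genes in 2 strains) 7 met this, where chance gives about 1 in 20. In S100a6 the C3H replicate 4 value was 7.97, with the other C3H arrays at 8.30 to 8.42. The same array was far from the rest in Aass (9.32), Ndst4 (6.68), 4933431E20Rik (7.30) and the Calb1 neighbour Decr1 (8.16), low each time. Aass, Ndst4 and 4933431E20Rik were chosen for a profile like that of Calb1, in which C3H replicate 4 is the lowest C3H array, so their low value there was selected for and cannot be read against that rate. C3H replicate 2 was high in Syt1 (8.28), and C3H replicate 1 in Slc8b1 (7.86). Calb1 itself did not meet this criterion in C3H or NZO.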

How the results depend on the processing

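No paired analysis was possible because the labels give no replicate numbers shared between the strains. Calb1 lay between -1.95 and -1.61 in all 18 alternatives, of which some could not move it. Of the 9 other members, 0 passed with the acinar covariate (3 at an unadjusted p below 0.05 in limma), 1 passed without NZO replicates 4 and 5, and 0 to 1 passed with single arrays left out. The count was 0 without NZO replicate 5 or without C3H replicate 5 (2 each at an unadjusted p below 0.05). In the 4 related lists 21 genes were called, 4 with the acinar covariate and 15 to 24 with single arrays left out. Over all 19938 genes, array weights called 4125 (1815 higher, 2310 lower), the acinar covariate 227 (123 higher, 104 lower) and the fit without NZO replicates 4 and 5 called 1105 (613 higher, 492 lower), against 2010 (1090 higher, 920 lower). Single arrays left out gave 1441 to 2701 genes in all (the most without C3H replicate 4), 772 to 1509 higher (the most without NZO replicate 2) and 641 to 1574 lower (the most without C3H replicate 4). The acinar covariate, which itself differs between strains, turned the sign of S100a6 (-0.26), S100a8 (-0.26), S100a9 (0.017), S100a16 (-0.047), S100g (-0.48), Anxa2 (-0.33), Tmem64 (-0.10), Decr1 (-0.079), Nbn (0.085), Tat (0.51), Zfp612 (0.21), Cmtr2 (0.13) and Vac14 (0.10), none of which passed. Without NZO replicates 4 and 5, S100a8 (-0.0097), Tmem64 (-0.039), Nbn (0.014) and Vac14 (0.021) turned, with array weights Tmem64 (-0.031), Chst4 (0.046) and Hydin (0.041), and with the mean of all probe sets Nbn (0.038). With single arrays left out, signs also turned in Chst4 (-0.070 to 0.057), Vac14 (-0.065 to 0.017), Nbn (-0.063 to 0.0012), Tmem64 (-0.028 to 0.041), Hydin (-0.061 to 0.045) and S100a7a (-0.092 to 0.0036). The cause was not tested. Low signal limits what the dim Calb2 and S100a8, and S100a9 just above that bound, can show.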
